A study of Ovis aries with 26 samples.

Results

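EHF, ELF3 and SPDEF are epithelium-specific members of the ETS family of transcription factors, and they were followed here through the developing sheep pancreas as the 3 named genes among 24478 listed features. All 3 were present in every library and passed the low-count filter in both lineages tested. Single-cell RNA-seq had been performed on pancreas tissue of American Romney sheep (Ovis aries), with 26 libraries from 23 animals, to compare CFTR-/- animals, a model of cystic fibrosis (CF), with wild-type (WT) animals through gestation. At 80 days the 4 control fetuses were male, replicates 1 and 3 being WT and replicates 2 and 4 carrying a single mutated CFTR allele (labelled HZ), and 3 of the 4 were triplets. These 4 controls also stand as the 80-day group in the comparisons of WT animals by age. They were set against 3 male CFTR-/- fetuses. At 120 days 3 WT fetuses, of which replicate 2 was female, were set against 4 male and 2 female CFTR-/- fetuses. In the study's sample information WT replicates 1 and 2 of that age share the stem of an animal number, as the triplets do. Such a stem is also shared by CFTR-/- replicates 2 and 3 at 80 days and by male CFTR-/- replicates 2 and 3 at 120 days. The 2 female CFTR-/- fetuses were twins. At term 4 WT lambs, of which replicate 3 was female, were set against 3 CFTR-/- lambs, of which replicates 1 and 2 were female. According to the study's sample information the CFTR-/- males were clones grown from a single male CFTR-/- fibroblast line and the CFTR-/- females were naturally bred. Sex and breeding therefore cannot be told apart within the CFTR-/- animals. All WT and heterozygous animals were naturally bred. In the comparisons at 80 days, and of males at 120 days, genotype therefore cannot be told apart from cloning.

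ETS factors share a DNA-binding domain that recognises a short purine-rich core, and the epithelial branch of the family (EHF, ELF3, ELF5 and SPDEF) is found mainly in glands and in the linings of ducts and airways. EHF and ELF3 are known as regulators of epithelial identity and barrier genes, and ELF3 is also known to respond to inflammatory signals. SPDEF is best known for driving the differentiation of mucus-producing and other secretory cells, such as goblet cells of airway and gut.

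After barcodes with over 200 and under 6000 genes and under 25% mitochondrial UMIs were kept, 79510 of 109501 barcodes remained, with 7841217 to 171256169 UMIs (unique molecular identifiers, each standing for a captured transcript) per library. Barcodes were assigned to lineages by 13 lists of marker genes that hold none of the 3 factors. This gave 27579 acinar-gated, 11530 duct-gated and 9578 endocrine-gated barcodes. Levels are given as CPM, the usual scaling of a gene's UMIs by all UMIs, from UMIs summed over the gated cells of an animal with at least 20 such cells. CPM values of different genes are not set against each other. The 10 duct markers set the duct gate, so their excess in duct-gated over acinar-gated cells, in 21 of 21 animals for all except TSPAN8, which lay at or near 0 in both lineages, is a description of the gate and no test of it. The most any libraries shared was 12 barcodes. CFTR-/- male replicate 3 at 120 days, the shallowest library, gave 70 duct-gated and 15 acinar-gated cells and no acinar value. WT lamb replicate 4 held 151 intestine-like cells and was the only animal with at least 20 of them, beside 18 in control replicate 1 at 80 days and none in the other animals, and the genotype differences of the 3 factors in males at 120 days and in lambs are given with and without these animals. Without WT lamb replicate 4 the duct had 626 calls between genotypes at term (638 with it) and 68 from 120 days to term in WT (121 with it), and the acini 509 and 2297 (115 and 2250 with it).

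EHF marked the duct lineage in every animal. In duct-gated cells its level ran from 219 to 617 CPM with a median of 386 CPM over 23 animals. In endocrine-gated cells it ran from 5.19 to 39.2 CPM (median 13.5, n = 21) and in acinar-gated cells from 2.67 to 15.6 CPM (median 8.63, n = 21). The lowest duct value therefore lay above the highest value of the acinar, endocrine, stromal, mural, endothelial, glial, myeloid, T cell, B cell and erythroid gates. Within an animal the duct level was 24 to 124 times the acinar level, with a median ratio of 40.9. Duct-gated cells made up a median of 11.8% of an animal's kept barcodes and held a median of 76% of its EHF UMIs. Below the duct the order of lineages was loose: endocrine exceeded acinar in 16 of 20 animals, and acinar exceeded myeloid in 9 of 15.

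Among the lineages with values in more than 1 animal, ELF3 too had its highest median in the duct, though its duct range overlapped with that of endocrine-gated cells. Its duct level ran from 98.7 to 576 CPM (median 249, n = 23), its endocrine level from 15.2 to 169 CPM (median 41.9, n = 21) and its acinar level from 4.03 to 50.3 CPM (median 15.3, n = 21). Within every one of 21 animals the duct was the higher, by a median ratio of 5.64 and at least 2.7. Duct-gated cells held a median of 56.2% of an animal's ELF3 UMIs. Acinar-gated cells held 16.1%, and endocrine-gated cells 8.96%. The duct median was 76% for EHF.

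SPDEF followed the opposite pattern and belonged to the acinar lineage. Its acinar level ran from 7.2 to 63.3 CPM (median 26.3, n = 21), whereas its duct level ran from 1.21 to 19.7 CPM (median 3.59, n = 23) and its endocrine level from 0 to 2.81 CPM (median 1.6, n = 21). Acinar-gated cells were the higher in 21 of 21 animals, by 1.75 to 20.1 times. They held a median of 70% of the SPDEF UMIs of an animal and the duct 1.76%. The ungated barcodes, with a median of 24 CPM, lay close to the acinar ones. Acinar exceeded ungated in 14 of 21 animals.

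**Figure D1:**
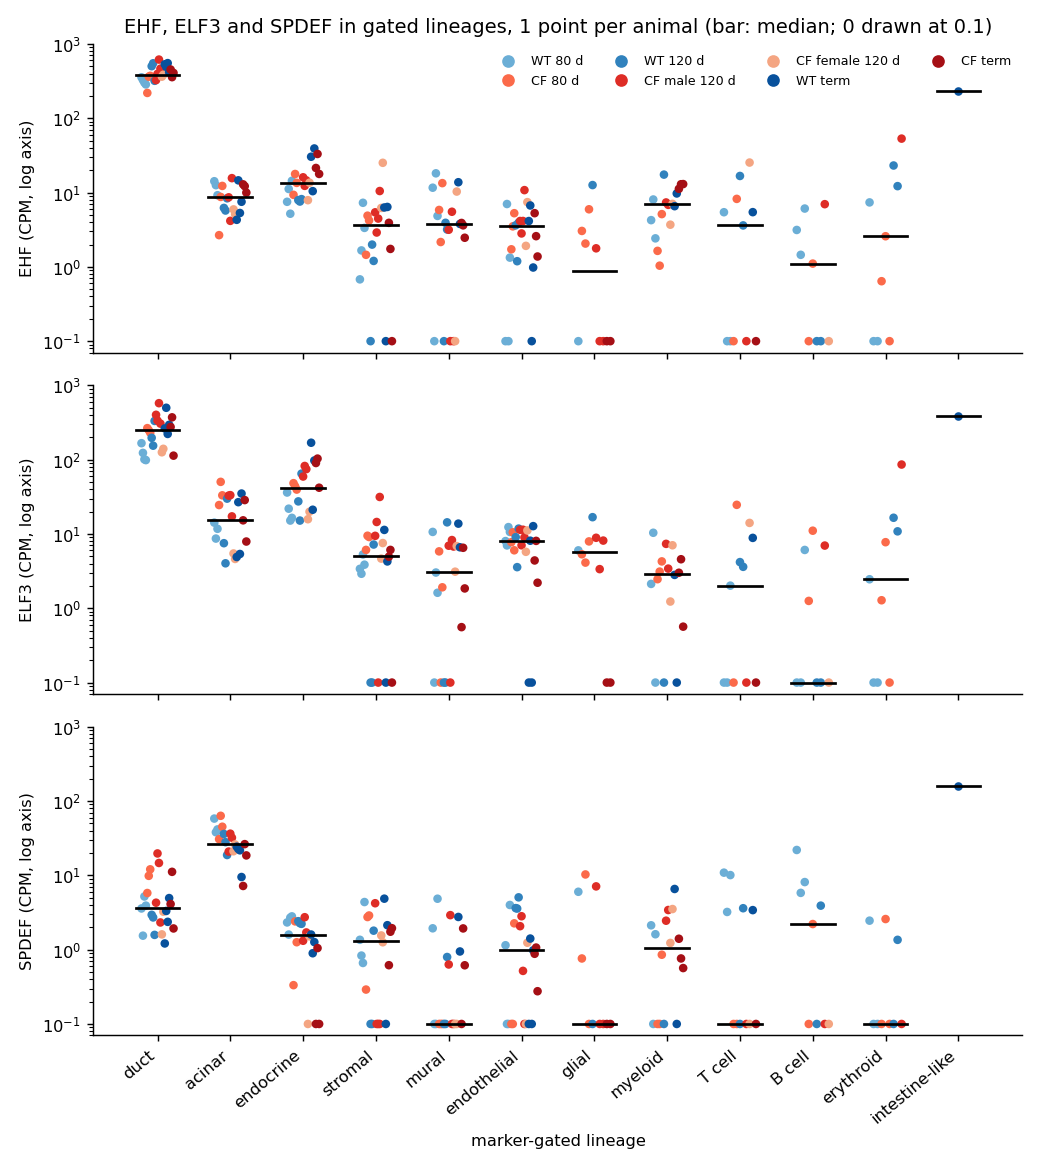
EHF, ELF3 and SPDEF in CPM (log axis) in 12 marker-gated lineages, with 1 point per animal coloured by age and genotype, a bar at the median and values of 0 drawn at 0.1. EHF stands at 219 to 617 CPM in the duct and at no more than 39.2 CPM in endocrine-gated cells, and SPDEF is higher in acinar-gated than in duct-gated cells in 21 of 21 animals.

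The intestine-like cells of WT lamb replicate 4 held all 3 factors at high levels, at 234 CPM of EHF, 383 CPM of ELF3 and 157 CPM of SPDEF. The ELF3 level was above that of the lamb's own duct-gated cells (295 CPM). That SPDEF level was above the highest acinar value of any animal. Where these cells came from was not tested, and with a single animal there is no measure of their spread.

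The duct and acinar levels were compared in a single fit with the animal as a block, over 21 animals with both lineages (edgeR quasi-likelihood test, Benjamini-Hochberg adjustment). EHF was higher in the duct by 3.75 ± 0.15 (SE) on the log2 scale (adjusted p = 4.35e-17) and ELF3 by 2.14 ± 0.15 (adjusted p = 1.25e-12). SPDEF was lower in the duct, with a log2 difference of -4.42 ± 0.25 (adjusted p = 2.39e-14). All 3 were called, in a comparison in which 79.5% of 11973 genes were called and 80.6% had an unadjusted p under 0.05. The duct and acinar ranges of EHF and ELF3 did not overlap across animals, as was so for 34.6% of all genes, while those of SPDEF did overlap. These differences depend on the scaling of the libraries: when total counts replaced the TMM scaling, the median of all genes moved from 0.04 to 1.86 and the differences were 5.58 for EHF, 3.95 for ELF3 and -2.70 for SPDEF, so the direction of each was kept. With total counts 94.8% of all calls were higher in the duct, against 52.4% with TMM. The 17 digestive enzyme genes found in the files took 5.72% to 22.8% of acinar UMIs and 0.0238% to 3.55% of duct UMIs, and leaving them out gave 3.75, 2.14 and -4.42.

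The share of cells with a UMI told the same order after every barcode was thinned to 3000 UMIs. EHF was detected in a median of 63.4% of duct-gated cells (48.9% to 79.7% over 23 animals), against 0.561% of stromal cells, a lineage that should lack it. Without thinning these shares were 87.4% and 1.49%, at median depths of 9958 UMIs in the duct and 4815 UMIs in the stroma. ELF3 was detected in 47.5% of duct-gated cells, 11% of endocrine-gated cells and 4.57% of acinar-gated cells, against 1.08% of stromal cells. SPDEF was detected in 7.52% of acinar-gated cells and in 0.901% of duct-gated cells, with a stromal median of 0%. The acinar share of SPDEF without thinning was 49.7%, at a median depth of 31689 UMIs.

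Within the duct, how often ELF3 was found in cells with and without EHF depended on the depth of the cells. After thinning to 3000 UMIs a median of 31.7% held a UMI of both genes and 81.6% a UMI of at least 1 of them. ELF3 was detected in 47.1% of EHF-positive and 46.1% of EHF-negative duct cells (medians over 23 animals), and was the higher in EHF-positive cells in 11 of 23 animals. After thinning to 1000 UMIs these shares were 21.3% and 19.7%, the first being the higher in 15 of 23 animals. Without thinning they were 78.6% and 50%, the first being the higher in 21 of 23.

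Within a lineage, each factor was then compared between genotypes at each age, and between ages in WT animals. Of 36 such tests, none was called by edgeR, with 6 at an unadjusted p under 0.05 and a largest log2 difference of 1.98. Over all genes the share at such a p was 14%, 12.2%, 12.8%, 20.2%, 15.8% and 14.1% in the duct and 8.79%, 5.04%, 11.5%, 14.6%, 11.8% and 30.9% in the acini, for the genotypes at 80 days, in males and females at 120 days and at term, and then for the steps to 120 days and to term in WT. In 6 of the 36 the ranges of the groups did not overlap, 5 of these with at least 3 animals in both groups. The share of all genes without overlap was 21.5% in the duct at 80 days, where ELF3 and SPDEF were among them, 37.1% in the duct of the female fetuses (ELF3), 13.6% in the acini at 80 days (ELF3) and 54.1% in the acini from 80 to 120 days (EHF and SPDEF). In the other comparisons it was 9.18% in males, 16.8% at term, 22.1% from 80 to 120 days and 11.4% from 120 days to term in the duct, and 16.9%, 42.6%, 4.76% and 20.9% in males, in females, at term and from 120 days to term in the acini. The shares of all genes called in the duct were 1.43% for CFTR-/- against WT at 80 days, 0.121% and 0% for male and female CFTR-/- fetuses at 120 days, 4.84% at term, and 1% and 0.918% for WT at 120 against 80 days and at term against 120 days. In acinar-gated cells the shares in the same order were 0.0677%, 0.00677%, 0.67%, 0.778%, 0.44% and 15.2%. For the female comparison in the duct, edgeR called 0 of 13188 genes with 1684 at an unadjusted p under 0.05, and DESeq2 called 198.

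No difference of EHF between genotypes passed the test in duct-gated cells. At 80 days the 4 control fetuses had 356, 327, 302 and 286 CPM and the 3 CFTR-/- fetuses 219, 363 and 373 CPM. The ranges overlapped, with means of 318 ± 30.8 (SD, n = 4) and 318 ± 85.8 CPM (n = 3) and a log2 difference of 0.07 with a 95% interval of -0.36 to 0.50 (edgeR adjusted p = 0.93). At 120 days the WT fetuses had 502, 550 and 320 CPM, the male CFTR-/- fetuses 326, 396, 617 and 465 CPM and the female ones 363 and 386 CPM. The CFTR-/- values of either sex lay largely within the WT range, and the differences from WT were -0.08 (-0.50 to 0.35) for males and -0.27 (-0.78 to 0.25) for females, and -0.10 for males without the shallow replicate 3. At term the WT lambs had 533, 491, 553 and 416 CPM and the CFTR-/- lambs 454, 358 and 408 CPM, with a difference of -0.07 (-0.50 to 0.36) that was -0.13 without WT replicate 4. The values of 358 and 408 CPM lay below those of all WT lambs. Over all alternatives run the term difference lay between -0.29 and 0.08. Each of these intervals reaches no further than 0.78 on the log2 scale, and none of them excludes 0.

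Age in WT animals showed the larger difference for EHF. Mean duct levels were 318 CPM at 80 days, 457 ± 122 CPM at 120 days (n = 3) and 498 ± 60.4 CPM at term (n = 4). The fitted step from 80 to 120 days was 0.72 ± 0.21 (SE) on the log2 scale, or 1.65-fold, and did not pass the threshold (edgeR adjusted p = 0.075). It did pass with DESeq2 (adjusted p = 0.00632) and in a fit of the 2 groups alone (adjusted p = 0.0301), and over all alternatives the adjusted p ran from 0.00632 to 0.443. WT replicate 3 at 120 days, with 320 CPM, lay within the 80-day range. The higher values, 502 and 550 CPM, were those of replicates 1 and 2, which appear to be litter mates by their animal numbers. The summed level of the 10 duct markers also rose from 80 to 120 days, from 3734 to 4526 CPM in the controls to 4993 to 5693 CPM in WT duct-gated cells. Their part in the step was not tested. From 120 days to term the difference of EHF was 0.13 (-0.30 to 0.56), and 0.20 without WT replicate 4 at term.

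ELF3 in duct-gated cells spread more widely between the groups. At 80 days the control fetuses had 167, 123, 101 and 98.7 CPM and the CFTR-/- fetuses 266, 249 and 230.4 CPM. The groups did not overlap, at means of 122 ± 31.6 (SD, n = 4) and 248 ± 17.7 CPM (n = 3). All of these CFTR-/- fetuses were clones, 2 of them sharing the stem of an animal number, and the controls were naturally bred. Genotype and cloning cannot be told apart here. The fitted log2 difference of 1.12 ± 0.35 (SE), or 2.17-fold, missed the threshold over all genes (edgeR adjusted p = 0.109). It ranged from 0.99 to 1.29 when single animals were left out, with adjusted p between 0.106 and 0.282. In a fit of the 2 groups alone the adjusted p was 0.00191, in a fit without the 2 heterozygous fetuses 0.518, and with DESeq2 0.0536. The summed level of the 10 duct markers moved with it, at 3734 to 4526 CPM in control and 4555 to 5259 CPM in CFTR-/- duct-gated cells, while the 13 acinar markers overlapped (549 to 1585 and 517 to 1197 CPM), and their part in the result was not tested. The share of thinned duct cells with an ELF3 UMI was 20.5% to 33% in the controls and 47.3% to 48.7% in the CFTR-/- fetuses.

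At 120 days the WT fetuses had 197, 154 and 332 CPM of ELF3. The male CFTR-/- fetuses had 402, 336, 576 and 306 CPM and the female ones 126 and 140 CPM. Male values overlapped with the WT range and female values lay below it. Against WT the differences were 0.69 (95% interval -0.05 to 1.43) in males and -0.83 (-1.72 to 0.06) in females, with edgeR adjusted p of 0.448 and 0.43. Without male replicate 3, the shallow library that held the highest value, the male difference was 0.64. Males and females of the same genotype and age differed by 1.52 ± 0.43 (SE), with an adjusted p of 0.0704, in a comparison in which 0.91% of all genes were called.

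At term ELF3 was at 263, 500, 222 and 295 CPM in WT and 276, 371 and 113 CPM in CFTR-/- lambs. The lowest value belonged to the cloned male (replicate 3), and the difference was -0.17 (-0.90 to 0.56, edgeR adjusted p = 0.841). It became 0.17 without that lamb and -0.20 without WT replicate 4. The 80-day and term differences of ELF3 between genotypes were 1.29 ± 0.50 apart (SE, edgeR adjusted p = 0.614), so a change of the difference with age was not shown. All 3 CFTR-/- fetuses at 80 days and CFTR-/- lamb replicate 3 were males, and so clones of the same line. In WT animals the level was 1.17 ± 0.35 higher on the log2 scale at 120 than at 80 days (edgeR adjusted p = 0.0908, DESeq2 0.0382), and 0.66 without WT replicate 3 at 120 days. The summed duct markers rose from 80 to 120 days too, as given for EHF, and their part was not tested. From 120 days to term ELF3 differed by 0.45, and by 0.48 without WT replicate 4.

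**Figure D2:**
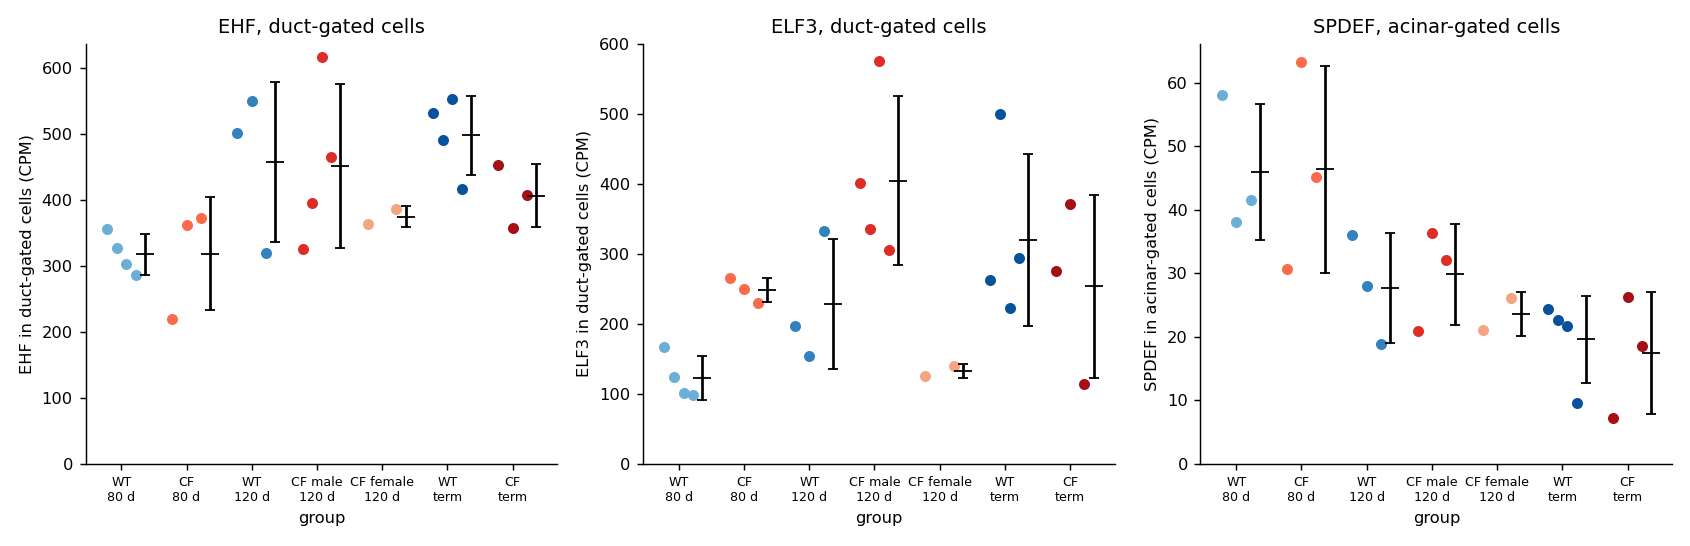
EHF and ELF3 in duct-gated cells and SPDEF in acinar-gated cells in CPM, with 1 point per animal and the mean ± SD of each group of age and genotype beside the points. The 3 CFTR-/- fetuses at 80 days sit at 230.4 to 266 CPM of ELF3, above the control fetuses at 98.7 to 167 CPM, while EHF overlaps at that age.

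Animals with 2 libraries showed how far the measurement itself scatters. The duct levels of EHF in the paired libraries were 325 and 328 CPM in CFTR-/- male replicate 1 at 120 days, 460 and 448 CPM in CFTR-/- lamb replicate 1 and 410 and 406 CPM in lamb replicate 3. ELF3 gave 422 and 381, 279 and 273, and 113 and 114 CPM in the same order. Repeat libraries of an animal differed by less than the range between the animals of its group.

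SPDEF in acinar-gated cells showed no difference between genotypes that passed the test. At 80 days control replicates 1, 3 and 4 had 58.1, 38.1 and 41.6 CPM (replicate 2, with 9 acinar-gated cells, gave no value) and the CFTR-/- fetuses 30.7, 63.3 and 45.2 CPM. At 120 days WT had 36.1, 28 and 18.8 CPM, male CFTR-/- fetuses 20.9, 36.4 and 32.1 CPM and female ones 21.1 and 26.1 CPM. Term WT lambs had 24.3, 22.7, 21.8 and 9.5 CPM and CFTR-/- lambs 7.2, 26.3 and 18.6 CPM. The groups overlapped at each age, and the 4 log2 differences lay between -0.25 and -0.16.

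With age, the WT mean of acinar SPDEF on the CPM scale was 45.9, 27.6 and 19.6 CPM at 80 days, 120 days and term. The 80-day and 120-day values did not overlap on that scale. The direction of the step from 80 to 120 days depended on the scaling, at 0.19 ± 0.30 (SE) with TMM and -0.72 with total counts, where the median of all genes was itself -0.84. The step from 120 days to term was -0.66 ± 0.27 with TMM (95% interval -1.23 to -0.10, edgeR adjusted p = 0.102). It kept its sign in all alternatives run, from -0.88 to -0.45, and was -0.47 without WT replicate 4 at term, the lowest of its group (adjusted p = 0.228). At term the difference between genotypes was -0.40 without that lamb.

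SPDEF in the duct was low in every group. CFTR-/- fetuses at 80 days had 5.79, 9.86 and 12.1 CPM and controls 3.59, 1.54, 5.2 and 3.92 CPM. The groups did not overlap, with a log2 difference of 1.41 ± 0.63 (SE, edgeR adjusted p = 0.309, and 0.0207 in a fit of the 2 groups alone). Male CFTR-/- fetuses at 120 days had 4.29, 19.7, 14.7 and 2.32 CPM against 1.58 to 2.95 CPM in WT, a difference of 1.98 ± 0.67 (adjusted p = 0.237) that was 1.01 without male replicate 2 and 1.93 without the shallow replicate 3. At term the CFTR-/- lambs had 4.12, 11.2 and 1.93 CPM, and the difference was 1.07 (-0.31 to 2.46). It was 1.35 without WT replicate 4, and ran from 0.38 to 1.52 when single animals were left out.

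The duct factors were low in the acini. ELF3 in acinar-gated cells at 80 days was at 14.2, 8.67 and 11.7 CPM in control replicates 1, 3 and 4 and 24.5, 50.3 and 33.1 CPM in the CFTR-/- fetuses, without overlap. The log2 difference of 1.46 ± 0.85 (SE) was not called (edgeR adjusted p = 0.661), and the adjusted p was 0.0036 in a fit of the 2 groups alone. The duct markers summed to 244 to 335 CPM in these control and 298 to 425 CPM in these CFTR-/- acinar-gated cells, and their part in the difference was not tested. EHF in acinar-gated cells differed between genotypes by -0.74 at 80 days, 0.37 and -0.30 in males and females at 120 days, and 0.58 at term, with each interval spanning 0. The term value was 0.60 without WT replicate 4. ELF3 in acinar-gated cells at term differed by -0.18 (-1.70 to 1.33), which turned to 0.44 without WT replicate 4.

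**Figure D3:**
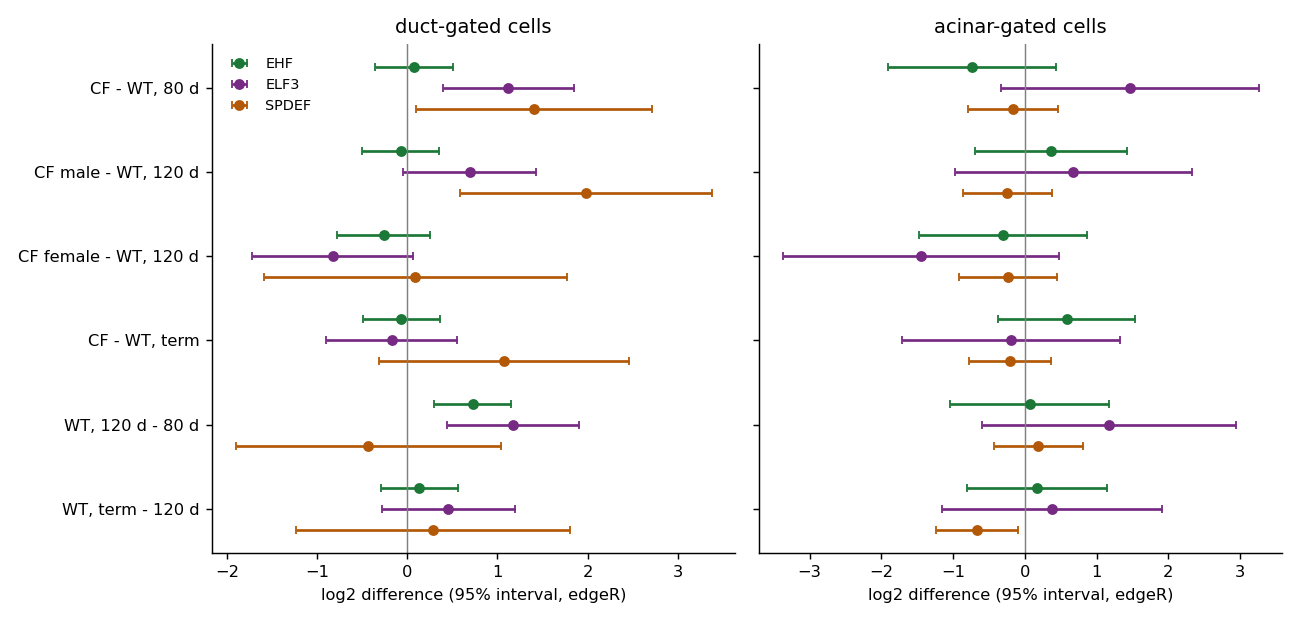
Log2 differences of EHF, ELF3 and SPDEF with 95% intervals from the edgeR fits, for 6 comparisons in duct-gated cells and the same 6 in acinar-gated cells. EHF differences between genotypes in the duct lie between -0.27 and 0.07, whereas ELF3 stands at 1.12 at 80 days and at -0.83 in the female fetuses at 120 days.

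Of the other ETS genes, ELF5, a close relative of EHF and a gene known from mammary and lung epithelium, changed with age. In duct-gated cells ELF5 was at 352, 169, 190.1 and 298 CPM in control replicates 1 to 4 at 80 days, of which 2 and 4 were heterozygous, and in WT fetuses at 33.5, 35.3 and 24.8 CPM at 120 days. It fell by 2.83 on the log2 scale (SE 0.60, edgeR adjusted p = 0.0275), while EHF and ELF3 were higher at 120 days in the same cells without passing the test. CFTR-/- fetuses at 80 days had 40, 93.8 and 49.9 CPM of ELF5, below all controls of that age, at a difference of -1.99 ± 0.57 that was not called (adjusted p = 0.0852). In WT acinar-gated cells ELF5 also fell from 120 days to term, by 1.74 (SE 0.32, adjusted p = 0.00162). When each of 7 animals was left out in turn, the acinar step was called 7 times and the duct step from 80 to 120 days 2 times, with adjusted p up to 0.114.

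The ETS list held 27 genes, of which 20 were tested in the duct, EHF, ELF3 and SPDEF included. At term 3 of 20 were lower in CFTR-/- duct cells and none higher, with a list median of -0.15 beside 0.00371 for all genes, in a comparison in which 4.84% of all genes were called. These were SPIB, a factor of B cells and plasmacytoid cells (log2 difference -4.63, adjusted p = 0.00526), ETV1 (-1.70, adjusted p = 0.00306) and ELK1, a target of MAP kinase signalling (-0.75, adjusted p = 0.0272). SPIB was also lower at 80 days, where 1.43% of all genes were called (-3.52, adjusted p = 0.0341, edgeR), at 0.108 to 0.986 CPM against 4.87 to 8.17 CPM. At term SPIB and ETV1 were called in 7 of 7 fits that left out an animal. ELK1 was called in 3 of 7, and was at -0.64 (adjusted p = 0.0679) without WT replicate 4. SPIB at 80 days was called in 1 of 7, with adjusted p up to 0.225. Over the lineages its mean was highest in B cells, at 66 CPM. The 7 B cell markers summed to at most 1.21 CPM in these duct-gated cells at 80 days. At term they summed to at most 1.28 CPM in WT and 0.305 CPM in CFTR-/- duct-gated cells. The part of B cell RNA in the SPIB differences was not tested. In the other duct comparisons 0 of 20 were called at 120 days in either sex (0.121% of all genes in males and 0% in females). From 80 to 120 days 1 of 20 (ELF5) was called, beside 1% of all genes, and from 120 days to term 0 of 20, beside 0.918%. In acinar-gated cells 3 of 21 (ELF5, ETV2 and ELF1) were lower at WT term than at 120 days, where 15.2% of all genes were called. The other acinar comparisons gave 0 of 21, beside 0.00677% to 0.778% of all genes. ELF1 lost its call without WT replicate 4 at term (adjusted p = 0.0624) and in 5 of the other 6 such fits, and ETV2 without WT replicate 1 at 120 days (0.0637).

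Between duct and acinar cells 13 of 19 tested ETS genes were higher in the duct and 3 lower, with a list median of 0.99 beside 0.04 for all genes. With total counts 18 were higher and 1 lower, with a median of 2.93 beside 1.86. The share of ETS genes called with TMM was near the 79.5% of all genes called with TMM in that comparison. The 4 largest differences were those of SPDEF, EHF, ETV4 (3.41) and ETV1 (3.11). SPDEF was the only tested ETS gene whose CPM mean was also lower in the duct (5.14 against 29.9 CPM). ETV2 and GABPA were called lower with TMM at -0.35 and -0.20, although their mean CPM was higher in the duct, so their direction turns with the scaling.

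Genes of epithelial junctions and keratins, known companions of this branch of ETS factors, were higher in the duct than in the acini in 16 of 25 tested and lower in 4 (median 1.16), where 79.5% of all genes were called. The direction of KRT7, KRT19 and CLDN4 was set by the gate, of which they are markers, and without them 13 of 22 were higher and 4 lower (median 0.61). With total counts 23 of 25 were higher and 1 lower (median 2.97 beside 1.86 for all genes). CLDN6 was at 4.53 with TMM. With genotype at term, where 4.84% of all genes were called, 5 of 25 rose in CFTR-/- duct cells and CGN fell (list median 0.04). The risers were CLDN6 (1.97), MUC1, a membrane mucin (1.74), KRT7 (1.39), CD24 (1.21) and KRT19 (1.17). The summed duct markers, which include KRT7 and KRT19, were at 8075 to 12295 CPM in these CFTR-/- and 6237 to 8929 CPM in these WT duct-gated cells, and their part was not tested. Without WT replicate 4 each of these 6 stayed called. Over 7 fits that left out an animal MUC1 was called in 7, CLDN6 and CD24 in 5, KRT7 and CGN in 4 and KRT19 in 3, each of the last 5 being lost without CFTR-/- lamb replicate 2. At 80 days KRT7 alone rose among 25 (1.54, edgeR adjusted p = 0.0289, list median 0.26), where 1.43% of all genes were called. In the remaining 4 duct comparisons, with 0% to 1% of all genes called, none of 25 was called. KRT7 at 80 days was called in 1 of 7 such fits, with adjusted p up to 0.122. In acinar-gated cells KRT7 was higher in CFTR-/- lambs (2.29, and 2.26 without WT replicate 4), where 0.778% of all genes were called. MUC1 was higher at WT term than at 120 days (1.16), where 15.2% were called. The other 4 comparisons, with 0.00677% to 0.67% of all genes called, gave no call. The duct markers, KRT7 included, summed to 374.5 to 638 CPM in acinar-gated cells of CFTR-/- lambs and 151.5 to 308.8 CPM in those of WT lambs. Their part in the KRT7 call was not tested.

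Of the mucous secretory genes, which SPDEF is known to accompany in goblet cells, 7 of 13 tested were lower in the duct than in the acini and 6 higher (median -1.46), beside 79.5% called of all genes. The sign of this median depended on the scaling: with total counts 5 were lower and 7 higher, with a median of 0.34 beside 1.86 for all genes. With TMM the trefoil peptide genes TFF1 (-5.89) and TFF2 (-5.64) and the disulfide isomerase gene AGR2 (-4.66) shared the direction of SPDEF, and AGR3 (5.25) did not. In the duct 2 of 14 rose in CFTR-/- lambs, MUC1 (1.74) and PIGR (1.66), where 4.84% of all genes were called. From 80 to 120 days in WT, with 1% of all genes called, 2 of 14 rose, PIGR (2.00) and FCGBP (1.95). Of 7 fits that left out an animal, PIGR was called in 6 at term, being lost without CFTR-/- replicate 2, and in 6 for the step from 80 to 120 days, being lost without control replicate 1, whereas FCGBP was called in none. None of 14 was called in the other 4 duct comparisons, where 0% to 1.43% of all genes were called. In acinar-gated cells 4 of 17 rose (PIGR 4.24, MUC13 2.93, MUC1 1.16 and FOXA3 1.03) and CREB3L4 fell (by 2.73) at WT term against 120 days, where 15.2% of all genes were called. CLCA1 fell (by 5.33) from 80 to 120 days, where 0.44% of all genes were called. None of 17 was called between genotypes, where 0.00677% to 0.778% of all genes were called. The acinar calls at term were kept without WT replicate 4, where FOXA3 was at 0.68. FOXA3 was lost without WT replicate 2 or 3 at 120 days, and CLCA1 was called in 1 of 6 fits that left out an animal.

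Of 16 duct transcription factors, EHF and ELF3 among them, 11 were higher in the duct than in the acini and none lower (median 1.46), beside 79.5% called of all genes. Without the 2 gate markers on this list 9 of 14 were higher (median 1.42), and with total counts 16 of 16 (median 3.25 beside 1.86 for all genes). With TMM NR1H4 (5.35), SOX9, a gate marker (3.27) and TFCP2L1 (2.73) were among those higher. With genotype 0 of 16 were called in the duct at any age, where 0% to 4.84% of all genes were called. With age ELF5 alone was called, from 80 to 120 days, where 1% of all genes were called. In acinar-gated cells 0 of 15 were called between genotypes, where 0.00677% to 0.778% of all genes were called. At WT term HES1, PROX1 and ELF5 were lower than at 120 days, where 15.2% of all genes were called. HES1 lost its call without WT replicate 4 at term (adjusted p = 0.0924) and in 4 of the other 6 such fits. Of 9 acinar transcription factors tested, SPDEF among them, 5 were lower in the duct and 4 higher (median -2.25). With total counts these counts were 5 and 4 again, with a median of -0.47 beside 1.86 for all genes. With TMM the lowest beside SPDEF were GATA4 (-5.08) and CREB3L3 (-3.42). In the duct 1 of 8 was called with age, CREB3L3 at term (4.39, and 4.73 without WT replicate 4), beside 0.918% of all genes, and none with genotype. It was lost without WT replicate 1 or 2 at 120 days. In acinar-gated cells 3 of 9 rose from 120 days to term (CREB3L3 2.08, FOXA3 1.03 and XBP1 0.71), in the same comparison and also without WT replicate 4 (FOXA3 then at 0.68), and none was called otherwise. XBP1 was lost without WT replicate 3 at 120 days (adjusted p = 0.0526).

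Inflammatory genes of epithelium, a group that ELF3 is known to be induced with, were higher in the duct than in the acini in 9 of 11 tested and lower in 1 (median 2.55), beside 79.5% called of all genes. With total counts 11 of 11 were higher (median 4.37 beside 1.86 for all genes). With TMM IL18 (4.67) and RELB (3.87) had the largest differences. Between genotypes 0 of 13 passed the test in either lineage, where 0% to 4.84% of all genes were called in the duct and 0.00677% to 0.778% in the acini. Their median difference in the duct was 0.45 at 80 days, 1.12 in males and -0.61 in females at 120 days and 0.09 at term, beside medians of all genes within 0.02 of 0. In the acini it was 0.65, 0.43, -0.56 and -0.07 in the same order. NFKB1 was at 109 to 112 CPM in CFTR-/- and 83.5 to 88.7 CPM in control duct cells at 80 days (log2 difference 0.45, edgeR adjusted p = 0.597). The groups did not overlap, as was so for 21.5% of all genes in that comparison. SOD2 rose in WT duct cells from 80 to 120 days (1.32) and again to term (1.22), where 1% and 0.918% of all genes were called. The first step was called in 3 of 7 fits that left out an animal, and the step to term in 3 of 7, being 0.99 (adjusted p = 0.112) without WT replicate 4.

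No relation between EHF and ELF3 across animals was detected in the duct. Over 23 animals Pearson's r of log2(CPM + 1) was 0.321 (permutation p = 0.133) and Spearman's rho 0.256 (p = 0.236). Without the 2 animals farthest from the median of EHF, r was 0.296. Within ages it was 0.00462 at 80 days (n = 7), 0.104 at 120 days (n = 9) and 0.0358 at term (n = 7), with permutation p of 0.981, 0.779 and 0.917. It turned to -0.137 when each group was centred on its mean, and when single animals were left out it ran from 0.193 (permutation p = 0.392), without the shallow CFTR-/- male replicate 3, to 0.42 (permutation p = 0.0546), without CFTR-/- replicate 1 at 80 days.

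ELF3 did move together between lineages of the same animal. This relation, and the other 3 between lineages, was examined after the values had been seen, and 5 relations were computed in all. Between duct-gated and endocrine-gated cells r was 0.868 (permutation p = 2e-05, the smallest these resamples can give, adjusted p = 0.0001) and rho 0.86 (p = 4e-05, adjusted 0.0002) over 21 animals. Without the 2 animals farthest from the median, r was 0.837. Within ages r was 0.978 at 80 days (n = 7, permutation p = 0.000794), 0.948 at 120 days (n = 8, p = 0.00689) and 0.734 at term (n = 6, p = 0.142). Between duct-gated and acinar-gated cells r was 0.658 (permutation p = 0.00154, adjusted 0.00385) and rho 0.636 (adjusted 0.0059), and 0.701 without the 2 animals farthest from the median. Within ages it was 0.882 at 80 days (n = 6), 0.962 at 120 days (n = 8) and 0.623 at term (n = 7), with permutation p of 0.0222, 0.00169 and 0.136. At 80 days ELF3 did not overlap between genotypes in duct or acinar cells, as was so for 21.5% and 13.6% of all genes. It did not overlap in endocrine cells either, a lineage for which the share of all genes was not computed. The endocrine levels were 15.2 to 36.1 CPM in the controls and 39.6 to 48.3 CPM in the CFTR-/- fetuses. The part of such differences between groups in these r was not tested.

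Over all animals EHF gave no such relation, with r of 0.186 between duct and endocrine (permutation p = 0.421) and 0.0622 between duct and acinar cells (p = 0.785). Within ages its r varied in sign. Between duct and endocrine cells it was 0.258, -0.299 and -0.635 at 80 days, 120 days and term (permutation p = 0.558, 0.447 and 0.192). Between duct and acinar cells it was 0.842 (n = 6), -0.0239 and -0.565 (permutation p = 0.103, 0.997 and 0.177). The lineages of an animal share a library and a dissociation, and free RNA of that library, and the part of these in the relations was not tested. The ratio of ELF3 to EHF UMIs in the duct was 0.278 to 1.23, whereas in endocrine-gated cells it was 1.14 to 7.95 and in acinar-gated cells 0.689 to 9.17. In 21 of 21 animals the ratio was above that of the animal's own duct in each of these lineages. The duct markers summed to 309 to 911 CPM in endocrine-gated cells.

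**Figure D4:**
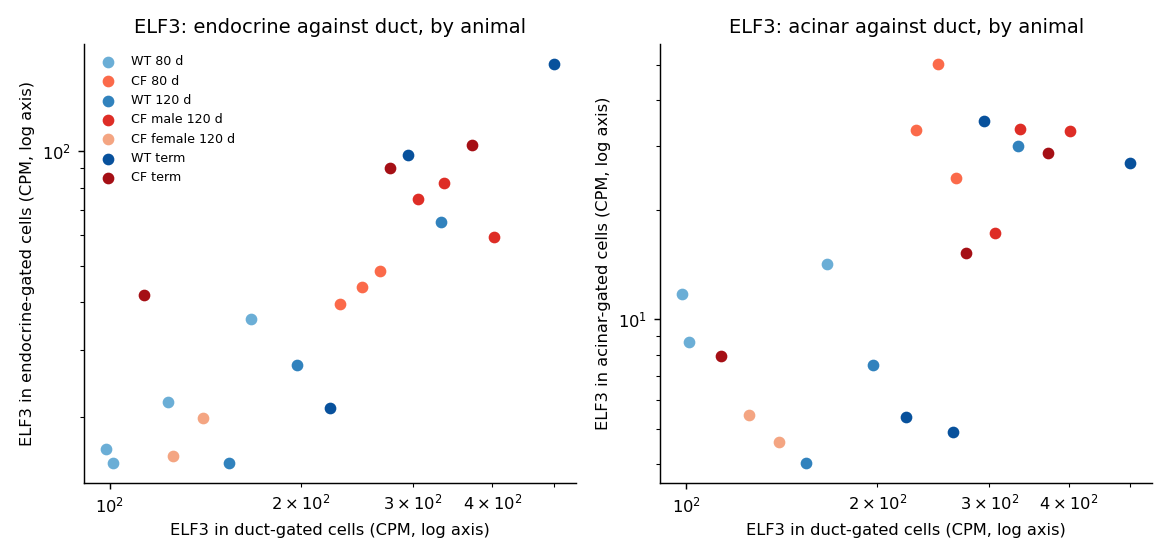
ELF3 in endocrine-gated (left) and acinar-gated (right) cells against duct-gated cells of the same animal, in CPM on log axes, 1 point per animal coloured by group. The points rise together, with r of 0.868 on the left and 0.658 on the right over 21 animals.

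The endocrine lineage was not uniform for the 2 duct factors. Endocrine-gated cells were divided, after the data had been seen, by the hormone transcript with the most UMIs among glucagon (GCG), somatostatin (SST) and pancreatic polypeptide (PPY). Insulin was not analysed here. In SST-leading cells EHF ran from 37.9 to 140 CPM (median 64.8, 17 animals with at least 20 such cells), against 1.96 to 42.6 CPM in GCG-leading cells (median 8.18, 21 animals) and 0 to 27.9 CPM in PPY-leading cells (median 6.9, 13 animals). Within all 17 animals with both, EHF was higher in SST-leading cells, by 1.99 to 26.6 times with a median of 7.09. The smallest ratio was that of WT lamb replicate 4, the animal with the intestine-like cells.

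ELF3 went the other way. Its level was lower in SST-leading than in GCG-leading cells in 17 of 17 animals, with ratios of 0.161 to 0.998 and a median of 0.541. The lowest ratio was that of WT lamb replicate 3, with 31 SST-leading cells and 4.03 against 25 CPM. Some animals had as few as 26 SST-leading cells, and such low levels in so few cells limit the precision of these ratios. In control replicates 2 and 4 at 80 days, both heterozygous, the values were nearly equal, at 21.6 against 21.7 CPM and 16.2 against 16.4 CPM. SPDEF had medians of 1.37 and 1.55 CPM in these groups. EHF in SST-leading cells stayed below the duct range, whose lowest value was 219 CPM.

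**Figure D5:**
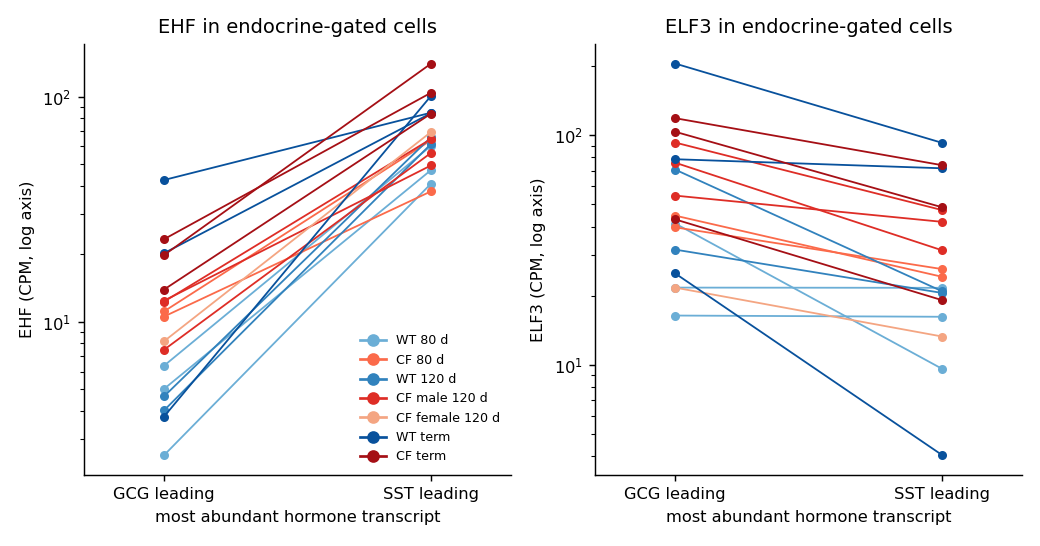
EHF and ELF3 in endocrine-gated cells in which glucagon (GCG) or somatostatin (SST) was the most abundant hormone transcript, in CPM on log axes, with a line joining the values of each of 17 animals. EHF is higher and ELF3 lower in the SST-leading cells of all 17.

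Across 187 sums of an animal and a lineage, the genes whose pattern was most like a factor's were ranked by Pearson's r of log2(CPM + 10) over 10137 genes, as a description, since sums of an animal share its library. EHF was closest to CFTR itself (0.945), the chloride channel of duct cells, followed by LOC105602349 (0.942), the tight junction gene MARVELD3 (0.939) and CPB2 (0.937). CFTR transcripts were also at 156 to 859 CPM in duct-gated cells over the 23 animals, CFTR-/- ones included. ELF3 was closest to broadly epithelial genes: the protease inhibitor gene SPINT1 (0.914), the claudin gene CLDN7 (0.902), E-cadherin (CDH1, 0.9), RIPK4 (0.9) and LSR (0.899). SPDEF was closest to the interleukin receptor gene IL22RA1 (0.823), AGR2 (0.822), LOC101122142 (0.819), ABO (0.808) and MACC1 (0.79), of which the first 4 were highest in the intestine-like cells of a single animal.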

How the data were processed

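Fresh pancreas was dissociated with collagenase or, alternatively, Liberase, and then Accutase, and sequenced as 10x Genomics 3' libraries. The study also names alternative kit versions and collected these animals over several breeding seasons. Which of these applied to a library is not labelled, and their part in the differences between groups was not tested. The authors deposited UMI counts per gene and barcode, made with Cell Ranger 3.1.0 against a sheep reference (Oar_v4.0) and not filtered by the quality limits of the study. Those limits (over 200 and under 6000 genes, under 25% mitochondrial UMIs) were applied here. Of the features, 8432 carry only a LOC number, and 501 of these were given a symbol from the RefSeq table of another sheep assembly, used for names only. A barcode took the marker list with the highest mean scaled score (capped at 3) where this was at least 0.5 and at least 0.25 above the next list. No doublet caller was run. A stricter gate (0.75 and 0.5), which leaves out more barcodes with mixed markers, was an alternative. At least 20 duct-gated cells were available in all 23 animals and at least 20 acinar-gated cells in 21. Counts were summed per animal, with repeat libraries of an animal added together.

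Each lineage was fitted once over 7 groups with edgeR 4.0.16 in R 4.3.3 (TMM, filterByExpr, robust quasi-likelihood test, calls at a Benjamini-Hochberg adjusted p of at most 0.05 over all genes tested), with 612715 to 19684140 UMIs per duct sum and 1547962 to 137746308 per acinar sum. P-values measure the spread between animals, of which clones of a single line and litter mates share a source. Log2 differences come from these fits, and CPM values are scaled by total counts. The procedure was also run on simulated data, of which no result is given here. Correlations used 100000 permutations, two-sided. Shares of cells with a UMI carry counting error only and were taken after thinning each barcode to 3000 UMIs with a fixed seed, leaving out shallower barcodes. Ratios of ELF3 to EHF UMIs were compared only between lineages.

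The 3 factors and the gene lists were chosen with earlier results of these data known. Named genes are the 3 factors, up to 4 genes per list by the size of the called difference (otherwise by level), and the 5 genes most like each factor among those reaching a mean of 20 CPM in a lineage. Some genes that this rule names are not reported here. ELF5 and the other called ETS genes were described in more detail after their values had been seen. Alternatives were DESeq2 1.42.0, no low-count filter, a stricter gate, marker scores scaled within a library, fits of 2 groups, sex as a covariate, a replicate block, omission of enzyme genes, of the heterozygous fetuses and of each animal, and, chosen after the data were seen, total-count scaling without TMM. The relations between lineages, the division of endocrine cells by hormone and the ELF3 to EHF ratios were also chosen after the data were seen.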

Additional observations from a re-analysis of the deposited data

How the results depend on the processing

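All 3 duct against acinar differences kept their direction and stayed past the threshold under every alternative run, with EHF from 3.66 to 5.58, ELF3 from 2.05 to 3.95 and SPDEF from -4.72 to -2.70 on the log2 scale. Of the settings tried on the differences of the 3 factors, 597 kept direction and side of the threshold, 38 turned the sign of a difference that had not been called, 6 moved a difference past the threshold and none took a call away. Why any of these moved was not tested. SPDEF in the duct rests on 643 UMIs over 23 animals, which limits its precision.

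The differences that newly passed the threshold were those of ELF3 (1.10) and SPDEF (1.40) between genotypes in the duct at 80 days, ELF3 between genotypes in the acini at 80 days (1.45) and EHF from 80 to 120 days in the duct (0.73), all in a fit of the 2 groups alone, and EHF (0.73) and ELF3 (1.18) from 80 to 120 days in the duct with DESeq2. Signs turned as follows. With the stricter gate SPDEF in the duct of female fetuses became -0.17, EHF in the duct at term 0.0086, SPDEF in the acini at 80 days 0.0101 and EHF in the acini from 80 to 120 days -0.18. With marker scores scaled within a library EHF and SPDEF in the duct at term became 0.064 and -0.10, and EHF in the acini from 120 days to term -0.24. With sex as a covariate SPDEF in the duct of female fetuses became -0.47 and ELF3 in the acini at term 0.72. With total-count scaling SPDEF in the acini became 0.041 at 80 days and 0.090 in male fetuses, and from 80 to 120 days EHF became -0.80 and SPDEF -0.72. Without the 2 heterozygous fetuses EHF in the acini from 80 to 120 days became -0.11. The correlation of EHF with ELF3 became -0.137 with groups centred.

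Leaving out single animals turned the sign of EHF in the duct between genotypes at 80 days (-0.019 to 0.23), in males (-0.21 to 0.034) and at term (-0.24 to 0.081), and from 120 days to term (-0.00077 to 0.24), of ELF3 in the duct at term (-0.43 to 0.18) and of SPDEF in the duct of females (-0.54 to 0.50). In the acini it turned EHF in males (-0.20 to 0.69), from 80 to 120 days (-0.11 to 0.30) and from 120 days to term (-0.33 to 0.42), ELF3 at term (-0.53 to 0.44), from 80 to 120 days (-0.078 to 1.61) and from 120 days to term (-0.24 to 1.64), and SPDEF at term (-0.41 to 0.069) and from 80 to 120 days (-0.020 to 0.41).

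The number of genes called moved more than the 3 factors did. In the duct edgeR called 188 genes between genotypes at 80 days, 16 in males, 0 in females and 638 at term, with 132 from 80 to 120 days and 121 from 120 days to term. DESeq2 called 477, 179, 198, 1032, 493 and 346. Fits of 2 groups alone called 1285, 6, 114, 108, 576 and 45. Total-count scaling gave 6 in males and 11 in females, scores scaled within a library 7 in males and 210 from 120 days to term, sex as a covariate 5 in males, no low-count filter 86 from 80 to 120 days, and omission of the heterozygous fetuses 11 at 80 days and 12 from 80 to 120 days. Leaving out single animals gave 45 to 157, 1 to 76, 0 to 1, 258 to 1087, 46 to 94 and 35 to 207.

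In the acini edgeR called 10, 1, 99, 115, 65 and 2250 genes in the same order. DESeq2 called 99, 10, 388 and 360 between genotypes and 229 from 80 to 120 days. Fits of 2 groups alone called 222, 5, 555, 0, 255 and 541. Total-count scaling called 18 at 80 days, 52 in females, 70 at term, 3449 from 80 to 120 days and 1473 from 120 days to term. The stricter gate called 3 at 80 days, 34 in females, 28 at term, 0 from 80 to 120 days and 1376 from 120 days to term, and scores scaled within a library 71, 0, 166, 178 and 189 up to the 80 to 120 day step. Sex as a covariate gave 22 in females and 19 from 80 to 120 days, and omission of the heterozygous fetuses 4 at 80 days and 1 from 80 to 120 days. Leaving out single animals gave 1 to 6, 1 to 3, 0 to 71, 23 to 649, 1 to 41 and 1111 to 3245, and 9311 to 9549 for the duct against acinar comparison.

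Total-count scaling moved the percentage of calls that were higher from 52.7 to 39.9 in the duct at 80 days, from 72.3 to 40.8 at term and from 59.1 to 26.3 between 80 and 120 days, and in the acini from 30 to 66.7 at 80 days, from 81.5 to 1.25 between 80 and 120 days and from 56.9 to 72.5 between 120 days and term. The median of all genes then stood at -0.20 in the duct at term, -0.23 in the duct from 80 to 120 days, and 0.25, 0.28, -0.84 and 0.19 in the acini at 80 days, in males, from 80 to 120 days and from 120 days to term.

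The shares of cells with a UMI followed the depth, at 31.6% for EHF and 20.2% for ELF3 in the duct and 2.43% for SPDEF in the acini after thinning to 1000 UMIs, and 87.4%, 76.9% and 49.7% without thinning.

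Replicate numbers did not pair animals across groups, although the CFTR-/- males of all ages were clones of a single line whatever their number. The deviations of same-numbered animals from their group means had correlations of -0.207 to 0.279, and the number was used as a replicate block only as an alternative. With the block the duct had 85 calls at 80 days, 8 in males, 368 at term, 82 from 80 to 120 days and 51 from 120 days to term, and the acini 15 from 80 to 120 days. ELF3 in the acini with the block became 0.16 at term and -0.000601 from 120 days to term. The block changed no call of the 3 factors, and the female comparisons could not be fitted with it.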

Other observations

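The other ETS genes found in the files were spread over the lineages. By the mean over animals, ETS2 was highest in the duct (493 CPM, against 38 CPM in acinar-gated cells), as were ETV4 (13.2 CPM) and ELK1 (30.9 CPM). ETV1 (338 CPM) and FEV (49.9 CPM), a factor known from serotonin neurons and developing islets, were highest in endocrine-gated cells. ETS1 (748 CPM), ERG (145 CPM) and FLI1 (143 CPM) were highest in endothelial cells, where they are known regulators. SPI1, the myeloid factor PU.1, was highest in myeloid cells (178 CPM). Acinar-gated cells held the highest mean of none of the 26 ETS genes, and SPDEF, which was highest in the intestine-like cells of a single animal, was the ETS gene for which they came next.

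Ungated barcodes, 14.4% of those kept, held EHF at 12.5 to 119 CPM, ELF3 at 9 to 137 CPM and SPDEF at 7.52 to 60.3 CPM over the 23 animals. Endocrine-gated cells with none of the 3 hormones leading, 509 in all, had a median of 72.5 CPM of ELF3 and 13.4 CPM of EHF over 9 animals.

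The numbers of UMIs in kept barcodes were 69643 for EHF, 63921 for ELF3 and 26602 for SPDEF.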
